A study of Mus musculus with 168 samples.

Results

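Gata6, Icam2, Timd4, Alox15, Adgre1, Pf4 and Cxcl13 are 7 genes by which large peritoneal macrophages are commonly recognised. They were taken by gene symbol from the probe annotation of the array platform, 7 of 19752 genes with a probe set of their own, and each of the 7 was represented by exactly 1 probe set with no second symbol. The probe sets were 10453857 for Gata6, 10392177 for Icam2, 10375472 for Timd4, 10387855 for Alox15, 10446282 for Adgre1, 10523134 for Pf4 and 10523359 for Cxcl13. In the RefSeq gene table Icam2, Timd4 and Alox15 lie on chromosome 11, Pf4 and Cxcl13 on chromosome 5 and Adgre1 on chromosome 17.

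Male C57BL/6 mice of 6 weeks were gavaged with inhibitors of JAK kinases or with vehicle, and RNA of sorted immune cells from 80 animals was hybridised to Affymetrix Mouse Gene 1.0 ST arrays. The inhibitors are known here only by their codes, and no dose was given, so compounds are set side by side and not ranked. Macrophages (MF) make up 66 arrays, each from a different animal, of which 33 are labelled spleen and 33 peritoneal. The contrast is given by 102 spleen arrays of dendritic cells (DC), granulocytes (GN), natural killer cells (NK) and CD4 T cells (T4).

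The arrays labelled spleen MF came from 4 experiments, named J2, J3, J6 and J8, and were sorted on F4/80 after a step labelled dissection/trimming. They were taken 14 to 17 h after the last of 14 or 15 treatments with SB00526221 (6 arrays), SB00526222 (7), SB00526226 (4), SB00526228 (1), plain 0.5% methylcellulose vehicle (8) or the same vehicle at pH 3 (3). In J2, 4 more animals were sampled 4 h after ending a course of 3 treatments with SB00526221 (1 array), SB00526222 (2) or SB00526226 (1), without a vehicle of that schedule. Peritoneal MF came from 3 experiments. J12 (9 arrays) was sorted on F4/80 after dissection/trimming, and J23 (10 arrays) and J25 (14 arrays) on F4/80 and ICAM2 with a FACSAria sorter. Peritoneal animals received SB00513404, SB00526221, SB00526222 or plain vehicle and were sampled 1.5 to 6 h after 1 treatment (12 inhibitor and 6 vehicle arrays), 18 to 28 h after 1 treatment (8 inhibitor and 1 vehicle arrays) or 18 h after the last of 14 treatments (4 inhibitor and 2 vehicle arrays). The arrays of the other cell types came from J2, J3, J6 and J8 (no DC or GN in J8), and T4 also from J25. Their animals had SB00526221, SB00526222, SB00526226, SB00526228 or plain vehicle, and for GN and T4 also pH 3 vehicle. They had 14 or 15 treatments, or 3 treatments with sampling at 4 h. The J25 T4 arrays had SB00513404, SB00526222 or plain vehicle, after 1, 14 or 28 treatments. All values below are log2 of the deposited intensity. On that scale the median of an array lay between 6.90 and 7.15, so a gene near 6 or 7 is not brighter than the middle of its array.

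Large peritoneal macrophages are the long-lived resident phagocytes of the body cavity and clear dying cells and bacteria there. Gata6 encodes a zinc finger transcription factor that sets their tissue-specific program in response to retinoic acid, and loss of it in mice changes much of their gene expression. The other members are readouts of that state. Icam2 and Adgre1 encode surface proteins used to sort the cells (ICAM2 and F4/80), Timd4 encodes a receptor for phosphatidylserine on dying cells, Alox15 encodes the 12/15-lipoxygenase that oxygenates polyunsaturated fatty acids, and Pf4 and Cxcl13 encode chemokines. Red pulp macrophages, the main F4/80-high macrophages of the spleen, depend on the factor SPIC instead and carry VCAM1 and the iron exporter ferroportin.

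The RefSeq promoter table (GRCm38.p6) held entries used here for 3 members, and their windows are shown for the search for the motif bound by GATA factors, the family of GATA6. Each window runs from 250 bases before the annotated start to 50 bases after it, on the plus strand, at chr11:46810549-46810848 for Timd4, chr5:90772185-90772484 for Pf4 and chr5:95956689-95956988 for Cxcl13. Capitals mark the GATA motif, searched on both strands in 4 spellings. These were AGATAA, its variant AGATAG, the form TGATAA and the variant TGATAG.
Timd4: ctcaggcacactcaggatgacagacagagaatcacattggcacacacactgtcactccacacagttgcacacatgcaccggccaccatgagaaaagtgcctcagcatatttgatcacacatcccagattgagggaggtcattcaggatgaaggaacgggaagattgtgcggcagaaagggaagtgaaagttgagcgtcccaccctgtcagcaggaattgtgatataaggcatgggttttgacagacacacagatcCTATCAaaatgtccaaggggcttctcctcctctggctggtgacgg
Pf4: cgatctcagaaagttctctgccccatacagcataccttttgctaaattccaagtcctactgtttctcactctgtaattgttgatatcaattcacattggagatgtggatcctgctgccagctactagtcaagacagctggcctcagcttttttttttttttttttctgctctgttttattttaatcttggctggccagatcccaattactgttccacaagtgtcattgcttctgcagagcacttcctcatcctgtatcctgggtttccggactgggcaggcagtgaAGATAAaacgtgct
Cxcl13: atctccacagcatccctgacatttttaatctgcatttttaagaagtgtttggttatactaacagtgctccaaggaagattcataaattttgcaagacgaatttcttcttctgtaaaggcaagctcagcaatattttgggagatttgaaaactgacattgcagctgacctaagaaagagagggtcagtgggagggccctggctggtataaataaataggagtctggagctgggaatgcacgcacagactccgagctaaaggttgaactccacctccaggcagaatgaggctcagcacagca
The motif was present once in the Timd4 window, starting at base 256 and read as its reverse complement, and once in the Pf4 window, starting at base 287. Both matches lie after the annotated start. The Cxcl13 window held none of these 4 spellings. Of 32851 promoters in the table, 29.8% held at least 1 match, so the matches only describe the windows.

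All 7 members were bright in both sets of macrophage arrays, and for each of them the lowest of the 66 macrophage arrays lay above the highest of the 102 other arrays. The share of all genes with such a gap was not computed. The members were chosen with earlier results known, so the gaps only describe them. Among the 102 other arrays, 3 T4 arrays stood apart with raised members, and values that rest on them are given with and without them. Gata6 had a lowest, median and highest value of 10.03, 11.22 and 11.46 in the 33 arrays labelled spleen MF, against 10.36, 11.24 and 11.46 in the 33 peritoneal arrays. Outside macrophages it averaged 7.10 ± 0.17 in NK (n = 27), 6.63 ± 0.17 in GN (n = 16), 6.34 ± 0.23 in T4 (n = 39, and 6.29 ± 0.17 over the 36 without the 3 arrays) and 6.18 ± 0.17 in DC (n = 20, all SD). NK stood above GN by 0.47, more than their SDs together, and the other neighbours in this order did not. The dimmest macrophage array had 10.03, and the brightest other array had 7.46. In bulk samples such as these, fewer cells of a type and less RNA per cell cannot be told apart.

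Alox15 averaged 13.53 ± 0.21 (SD) in the spleen-labelled macrophages and 13.56 ± 0.16 in the peritoneal ones, with 33 arrays each, and between 6.41 and 6.74 on average in the other 4 cell types. The highest of these averages, in T4, was 6.529 ± 0.31 without the 3 arrays, against 6.74 ± 0.83 with them. The chemokine Cxcl13, which attracts B cells, had 12.80 ± 0.22 in arrays labelled spleen MF and 12.46 ± 0.37 in peritoneal MF, against 5.55 to 5.82 elsewhere. Pf4 had 12.45 ± 0.42 in arrays labelled spleen MF and 12.60 ± 0.32 in peritoneal MF, against 5.90 to 6.32 elsewhere. Outside MF, the averages of Alox15, Cxcl13 and Pf4 lay under the array median in each of the 4 cell types and neighbouring averages did not differ beyond their SDs. Timd4 showed the same form, with 11.09 ± 0.24 in arrays labelled spleen MF, 10.59 ± 0.32 in peritoneal MF and 6.30 to 6.66 elsewhere.

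Pf4 is best known as a product of platelets, so platelet genes were followed in both sets of macrophages. Of 7 listed platelet and megakaryocyte genes, 5 were on the array. Their average was 6.60 (range over arrays 6.35 to 6.99) in arrays labelled spleen MF and 6.62 (6.37 to 6.85) in peritoneal MF. Ppbp, the platelet chemokine encoded near Pf4, was the lowest, with 5.06 ± 0.28 in the spleen-labelled macrophages and 5.18 ± 0.33 in the peritoneal ones (SD). Treml1 was the highest, with 7.25 and 7.44 in the same order. Above the array median were 2 of the 5 in arrays labelled spleen MF and 1 in peritoneal MF. In vehicle arrays labelled spleen MF, Clec1b averaged 7.26, against 6.67 in DC, 5.25 in NK and 5.4 in T4. Against GN, all 4 tested platelet genes were lower. A part of platelets in Pf4 was not tested.

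The sort markers were the least restricted members. Adgre1 averaged 12.72 ± 0.12 in arrays labelled spleen MF and 12.70 ± 0.14 in peritoneal MF, but also 10.76 ± 0.23 in DC (SD, n = 20) and 10.07 ± 0.36 in GN (SD, n = 16), and only 6.04 in T4 and 5.75 in NK. Icam2, an adhesion molecule that endothelium and lymphocytes also carry, averaged 11.16 ± 0.34 in arrays labelled spleen MF and 11.32 ± 0.32 in peritoneal MF, against 8.79 ± 0.26 in NK and 8.77 ± 0.28 in T4, then 7.88 in GN and 7.28 in DC. The gap between the dimmest macrophage array and the brightest other array was 0.98 for Icam2 and 1.26 for Adgre1, and between 2.37 and 3.84 for the other 5 members. For 4 of these 5 the brightest other array was one of the 3 T4 arrays. Without them the gap was 5.33 for Alox15, 5.03 for Pf4, 4.00 for Cxcl13 and 2.83 for Timd4, against 2.71, 3.84, 2.45 and 2.37 with them, and it stayed at 2.57 for Gata6.

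**Figure D1:**
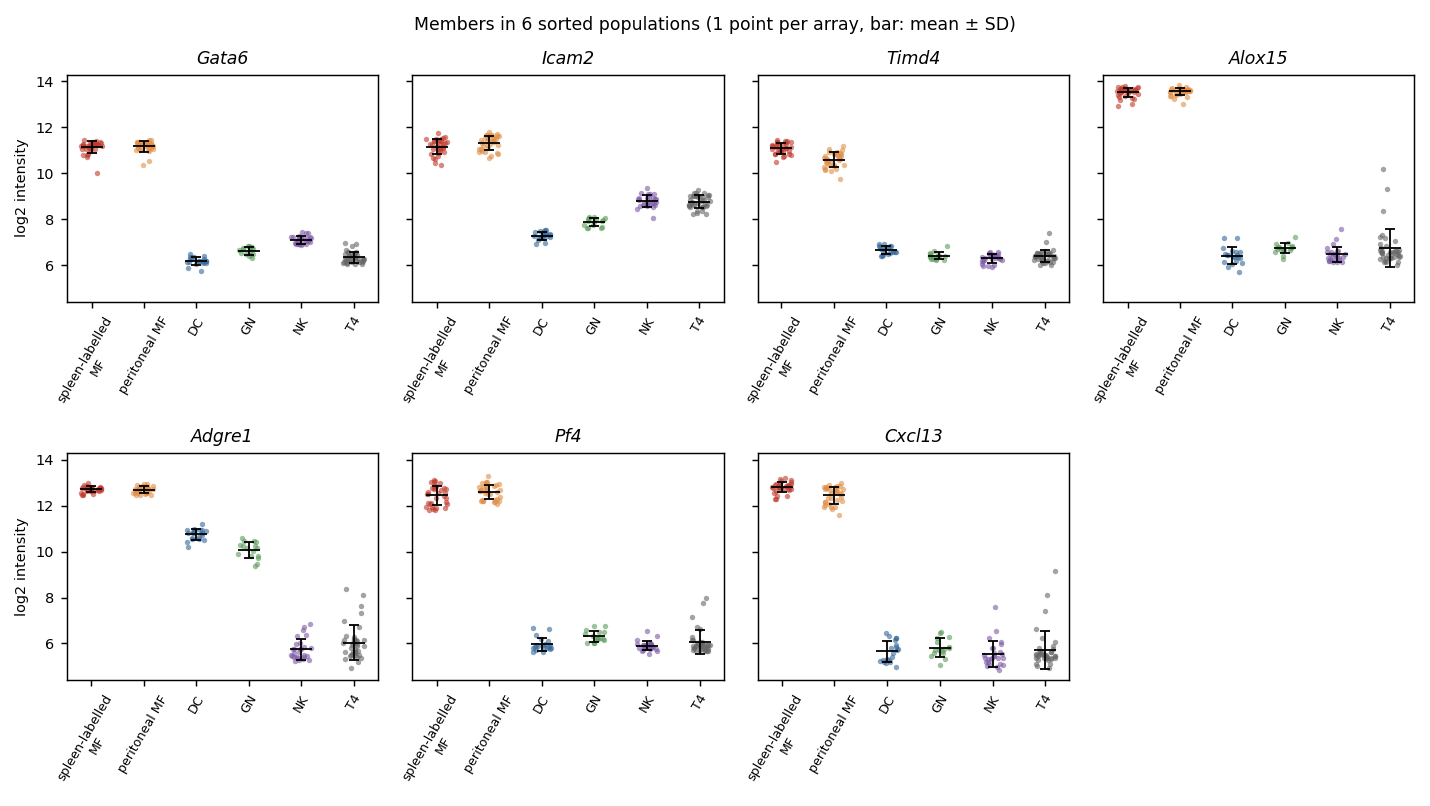
Log2 intensity of each member in 6 sorted populations (33 arrays labelled spleen MF, 33 peritoneal MF, 20 DC, 16 GN, 27 NK and 39 T4). Points are arrays and bars are mean ± SD; all macrophage points lie above all other points in each panel, with the smallest gap for Icam2 (0.98).

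In the vehicle arrays alone, 7 of 7 members were higher in the 8 arrays labelled spleen MF than in DC, GN, NK or T4 (limma, experiment as a fixed term, two-sided, adjusted over 12567 genes). The members were chosen as macrophage genes with earlier results known. Alox15, Pf4, Cxcl13 and Timd4 averaged under the array median in every other cell type, so they passed the filter through the MF arrays. The count and its p-values therefore only describe the members. Over all genes, 43.9% were called against DC (26.1% higher in MF), 75.9% against GN (42% higher), 36.4% against NK (19.8% higher) and 50.2% against T4 (24.4% higher). Gata6 had 11.06 ± 0.24 in MF (n = 8) and 6.19 ± 0.23 in DC (n = 6), a log2 difference of 4.83 (SE 0.14, limma adjusted p = 4.15e-21). Alox15 had 13.45 ± 0.23 in MF and 6.23 ± 0.29 in DC (difference 7.09, SE 0.14, limma adjusted p = 5.53e-25), and Pf4 had 12.69 ± 0.22 in MF and 5.99 ± 0.33 in DC (6.68, SE 0.15, limma adjusted p = 8.57e-24). The DC averages of these 3 genes lie under the array median and no detection call was used, so the differences are those of measured intensities and no fold is given. Icam2 gave the smallest difference that did not concern a sort marker of these arrays, 2.56 against NK (SE 0.21, limma adjusted p = 3.43e-11). Adgre1 encodes the protein on which these MF were sorted, so its differences of 1.92 (DC) to 6.92 (NK) only describe the sort.

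Genes that accompany the members in large peritoneal macrophages were bright in the arrays labelled spleen and in the peritoneal ones. Of 20 listed companions, 18 were on the array and all 18 averaged above the array median in both. Their summed level, as the mean over the list, was 11.63 ± 0.14 in arrays labelled spleen MF and 11.49 ± 0.14 in peritoneal MF, with ranges of 11.23 to 11.86 and 11.19 to 11.79. Prg4, which encodes lubricin, had 13.48 in arrays labelled spleen MF and 13.37 in peritoneal MF, and Rarb, a retinoic acid receptor, had 9.65 and 9.33 in the same order. Of 7 listed red pulp genes, 4 averaged under the array median and 3 above it in both sets. Spic had 5.15 in arrays labelled spleen MF and 5.10 in peritoneal MF, Vcam1 had 5.99 and 6.06, Slc40a1, which encodes ferroportin, had 5.51 and 5.66, and Treml4 had 6.16 and 6.28. The 3 above the median were the heme oxygenase gene Hmox1 with 10.39 in arrays labelled spleen MF and 10.63 in peritoneal MF, the receptor kinase gene Axl with 9.16 and 9.57, and Itgad with 7.64 and 7.65. The mean over the list was 7.14 (range over arrays 6.95 to 7.38) in arrays labelled spleen MF and 7.28 (7.06 to 7.55) in peritoneal MF. Spic, Vcam1 and Slc40a1, the ones named above for red pulp macrophages, were thus under the array median in both sets. Hmox1 and Axl were bright in both and not higher in the arrays labelled spleen. Which macrophages those arrays hold was not tested, and the tissue label is used below only as given.

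A direct comparison of vehicle arrays, 8 labelled spleen MF and 9 peritoneal MF, with experiment as a random block, called 0 of 7 members in limma, and 0.0472% of 10590 genes (0.0189% higher in the spleen-labelled arrays and 0.0283% lower). At an unadjusted p under 0.05, 2 members differed. Timd4 averaged 11.09 ± 0.19 in arrays labelled spleen MF and 10.59 ± 0.27 in peritoneal MF (SD), a difference of 0.48 (95% interval 0.22 to 0.75, limma adjusted p = 0.174). Cxcl13 averaged 12.81 ± 0.25 in arrays labelled spleen MF and 12.38 ± 0.38 in peritoneal MF, a difference of 0.46 (0.14 to 0.78, limma adjusted p = 0.287). Both sets overlapped for both genes. Without the experiment block Timd4 passed (limma adjusted p = 0.0437). The label, the experiments and the sorts run together here and cannot be told apart. Gata6 differed by -0.06 (-0.37 to 0.25), Adgre1 by -0.003 (-0.20 to 0.19) and Alox15 by -0.10 (-0.32 to 0.12). The smallest difference of Gata6 between MF and another cell type was 3.86 (NK).

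The genes whose pattern over all arrays of the series was most like a member's are given as a description, since arrays of 1 cell type share that type. Gata6 was most like Sorbs3 (Pearson r 0.993), Ms4a8a (0.992) and Itsn1 (0.991). Timd4 was most like Tgfb2 (0.993), Lpl (0.991) and C4b (0.991), and Alox15 most like Ednrb (0.997), Vsig4 (0.995) and Saa3 (0.995). Pf4 and Cxcl13 shared Fabp7 (0.995 each) and Ednrb (0.995 and 0.994) among their nearest genes, with Saa3 (0.995) the third for Pf4 and Vsig4 (0.994) for Cxcl13. Adgre1 was most like Serpinb10 (0.988), Anxa3 (0.984) and the receptor gene Csf1r (0.983). Icam2 had the weakest likenesses, to Mfge8 (0.957), B3glct (0.956) and Serpinb6a (0.954). Without the 3 T4 arrays the nearest 3 genes were the same for Gata6, Icam2, Pf4 and Cxcl13, while 2 of 3 were shared for Adgre1 and 1 of 3 for Timd4 (Tgfb2) and for Alox15 (Ednrb).

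Within macrophages the members were not equally steady. Adgre1 had the smallest spread within experiments, an SD of 0.12 in arrays labelled spleen MF and 0.13 in peritoneal MF, which stands at percentile 5 and 17.5 among the genes tested there. Timd4 had the largest spread in peritoneal MF, an SD of 0.32, above that of 91.6% of 10810 genes, and Gata6 and Icam2 the largest in arrays labelled spleen MF, 0.28 each, above 82.1% and 82.5% of 10978 genes. The median SD over all genes was 0.20 in arrays labelled spleen MF and 0.17 in peritoneal MF. Over all 66 arrays Timd4 spanned 9.76 to 11.45, a 3.22-fold range, and Alox15 spanned 12.92 to 13.85, a 1.91-fold range.

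Experiments differed for some members and not detectably for others. Between the 3 peritoneal experiments, Cxcl13 and Pf4 were lower in J12, the experiment sorted on F4/80 alone. Cxcl13 had a lowest, median and highest value of 11.60, 12.02 and 12.50 in J12, against 11.94, 12.35 and 12.83 in J23 and 12.55, 12.77 and 12.99 in J25. All 9 J12 arrays lay under all 14 J25 arrays and overlapped those of J23. With treatment in the model, the difference of J12 from the mean of J23 and J25 was -0.55 (SE 0.12, 1.46-fold, limma adjusted p = 0.00418). Pf4 averaged 12.26 ± 0.15 in J12 (SD, n = 9), against 12.61 ± 0.23 in J23 (n = 10) and 12.81 ± 0.27 in J25 (n = 14), with a fitted difference of -0.39 (SE 0.12, limma adjusted p = 0.0367). The Pf4 call was lost when any 1 of 7 arrays was left out, with adjusted p between 0.0505 and 0.0947. These were 4 arrays of J12 (both with SB00513404 and 2 with vehicle) and 3 of J23 (SB00513404 at 1.5 h, SB00526222 at 6 h and vehicle at 6 h).

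In this comparison 2 of 7 members were called, both lower in J12, and 14.1% of all genes were called, 5.74% as higher and 8.4% as lower. Gata6, Alox15 and Timd4 did not pass. Gata6 averaged 11.11 ± 0.11 in J12 and 11.20 ± 0.26 in J23 and J25 together, with a fitted difference of 0.08 (-0.18 to 0.33). Alox15 had 13.56 ± 0.10 in J12 and 13.57 ± 0.18 in the other experiments, with a fitted difference of -0.02 (-0.18 to 0.15). Timd4 averaged 10.75 ± 0.21 in J12 and 10.53 ± 0.34 in the others, with a fitted difference of 0.38 (0.06 to 0.70, limma adjusted p = 0.0981). The sort markers are a description. Icam2 averaged 11.56 ± 0.27 in J12 and 11.23 ± 0.29 in the experiments sorted on ICAM2, and Adgre1 averaged 12.80 ± 0.13 in J12 and 12.66 ± 0.13 in the others. Of 18 companions 5 were higher in J12 and 0 lower, among them Serpinb2 by 0.35 (SE 0.09, limma adjusted p = 0.00945), an inhibitor of plasminogen activators, C4b by 0.49 (SE 0.14, adjusted p = 0.0183), a complement component, and F5 by 0.35 (SE 0.11, adjusted p = 0.0302), coagulation factor V. Of 9 tested genes listed for small peritoneal macrophages and class II, 2 were lower in J12, both chains of class II molecules. H2-Ab1 averaged 10.51 in J12 and 10.88 in the others (fitted difference -0.85, SE 0.23, limma adjusted p = 0.0154), and H2-Eb1 averaged 9.56 and 9.71 in the same order (-0.55, SE 0.18, adjusted p = 0.0384). The 9 J12 arrays were all taken 3 h after 1 treatment, and sort and experiment cannot be told apart.

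**Figure D2:**
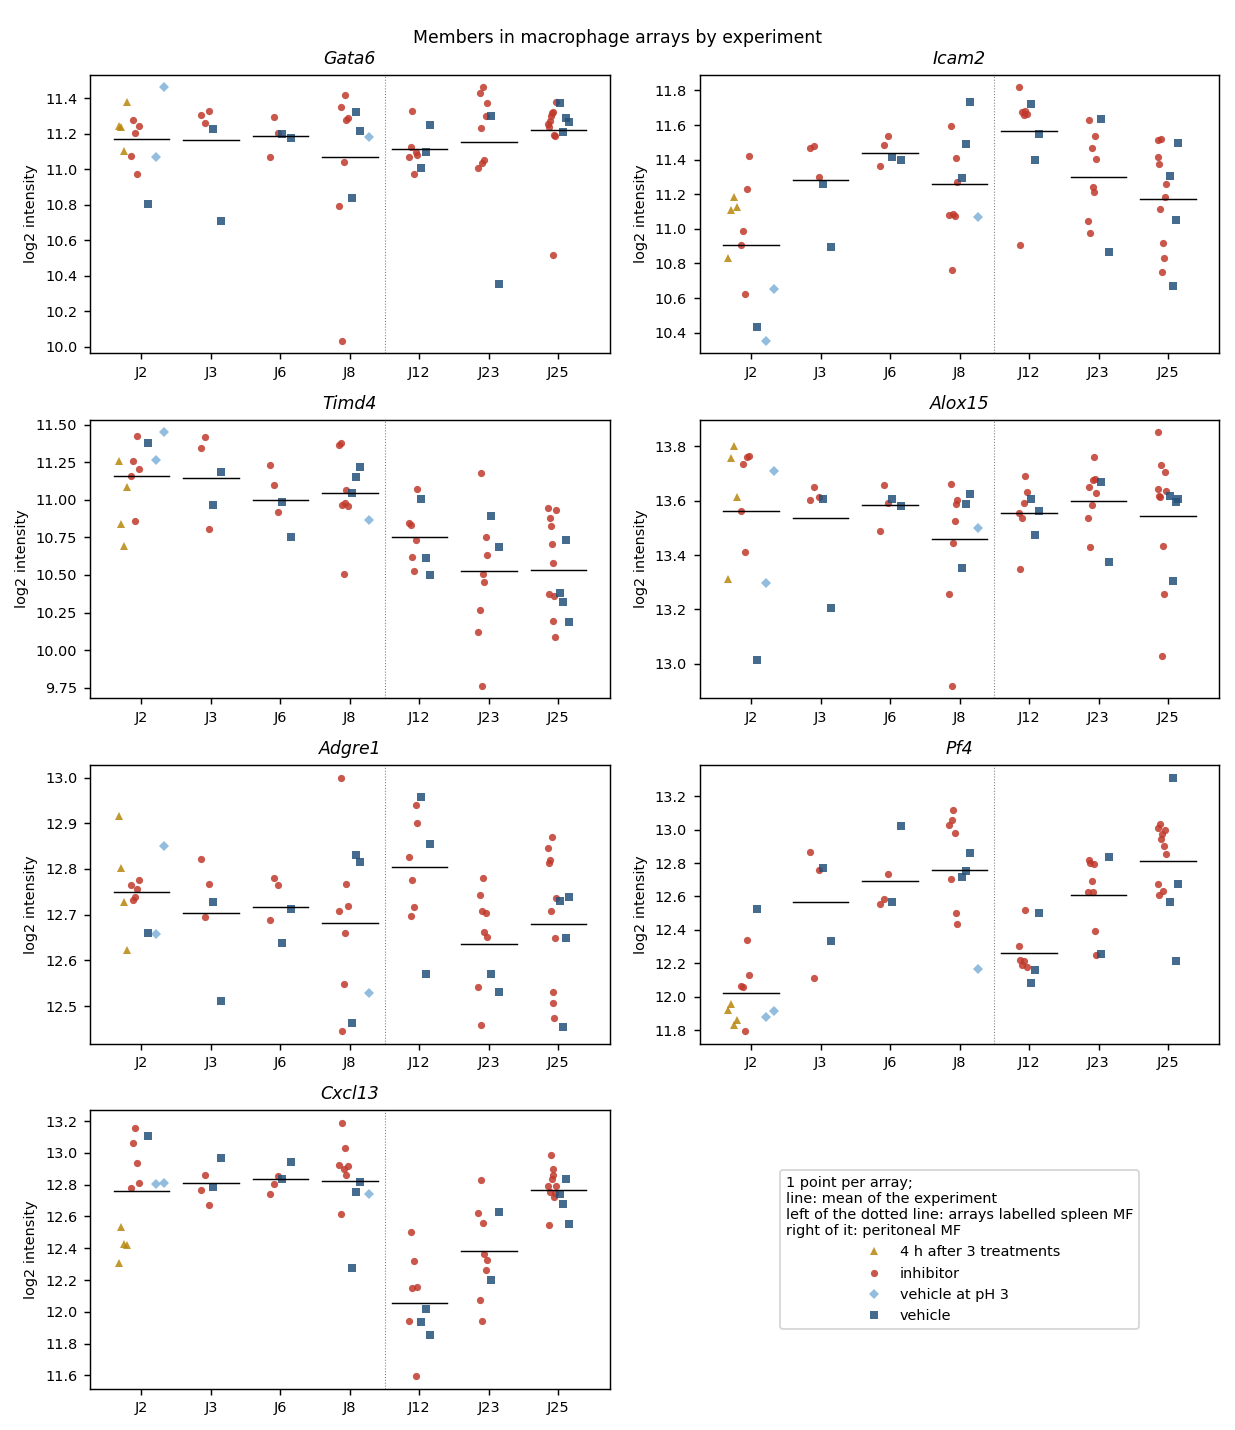
Log2 intensity of each member in the 66 macrophage arrays by experiment (4 labelled spleen MF left of the dotted line, 3 peritoneal MF right of it). Points are arrays by treatment and lines are experiment means; Pf4 is lowest in J2 (12.02), Cxcl13 is lowest in J12 (12.05), and single arrays lie far below the rest for Gata6.

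Among the arrays labelled spleen MF, Pf4 and Icam2 differed between the 4 experiments. Pf4 averaged 12.02 ± 0.22 in J2 (SD, n = 12), against 12.57 ± 0.33 in J3 (n = 5), 12.69 ± 0.20 in J6 (n = 5) and 12.76 ± 0.30 in J8 (n = 11; limma F test with treatment in the model, adjusted p = 0.00839). Within J2 the single plain vehicle array had 12.52, the 5 arrays of prolonged inhibitor 11.80 to 12.34, the 4 arrays at 4 h 11.83 to 11.96 and the 2 arrays of pH 3 vehicle 11.88 and 11.92. Icam2 averaged 10.91 ± 0.33 in J2, against 11.28 ± 0.24 in J3, 11.44 ± 0.07 in J6 and 11.26 ± 0.28 in J8 (limma F test, adjusted p = 0.0185). The Icam2 call was lost without the J2 vehicle array (adjusted p = 0.153), the J2 SB00526221 array (0.0502) or the J8 pH 3 vehicle array (0.0551). Gata6, Timd4, Alox15, Adgre1 and Cxcl13 did not pass (adjusted p between 0.0838 and 0.828). In this test 26.5% of 10978 genes were called, so 2 of 7 members is close to the share of all genes.

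The question of most of the design is what JAK inhibition does, and for these 7 genes no change was detected in macrophages. In each of the 7 comparisons of inhibitor with vehicle below, limma called 0 of 7 members, and 0 of 7 had an unadjusted p under 0.05. Across all genes the called share was 0.0925% early after 1 treatment, 0% late after it and 0% after 14 treatments in peritoneal MF. It was 0.00911% for all prolonged inhibitors, 0.164% for SB00526221, 0.00911% for SB00526222 and 0% for SB00526226 in arrays labelled spleen MF. Calls were rare in all genes, so the members' counts of 0 are not particular to them, and the intervals say more than the counts.

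Early after 1 treatment, Gata6 had a lowest, median and highest value of 10.97, 11.09 and 11.46 in the 12 inhibitor arrays, against 10.36, 11.17 and 11.29 in the 6 vehicle arrays of peritoneal MF. The groups overlapped, and the difference was 0.11 (-0.14 to 0.35). Within J23 it was 0.78, where the 4 inhibitor arrays averaged 11.14 and the only vehicle array had 10.36, while it was -0.004 in J12 and -0.02 in J25. Without that vehicle array it was -0.06. The other 6 members differed by between -0.08 (Timd4) and 0.09 (Pf4), and their interval limits all lay between -0.39 (Timd4) and 0.33 (Pf4). For Alox15 the interval was -0.12 to 0.20, and for Adgre1 -0.08 to 0.18.

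In J23 the single arrays of SB00513404 form a short series, and Timd4 moved most along it. Timd4 had 10.46 at 1.5 h, 10.51 at 3 h, 9.76 at 6 h, 11.18 at 18 h and 10.27 at 28 h. The 6 h value is the lowest of all 66 macrophage arrays and the 18 h value the highest of the 33 peritoneal ones. Gata6 had 11.05, 11.46, 11.04, 11.23 and 11.43 at the same times, with no such swing. Each time is 1 animal, so the series carries no test, and SB00526222 in the same experiment had a Timd4 of 10.12 at 6 h and 10.63 and 10.75 at 18 h, against a vehicle of 10.69 at 6 h and 10.89 at 19 h.

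Late after 1 treatment, the 8 inhibitor arrays were set against 3 late vehicle arrays of peritoneal MF, 1 at 19 h and 2 after 14 treatments. Gata6 averaged 11.20 ± 0.29 with inhibitor and 11.30 ± 0.08 with vehicle (difference -0.095, interval -0.42 to 0.23). All 7 members overlapped between the groups, and differences ran from -0.095 (Gata6) to 0.11 (Cxcl13).

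After 14 treatments, the differences of 6 members lay between 0.19 and 0.37, and none passed. Timd4 had 10.71, 10.83, 10.94 and 10.95 in the 4 inhibitor arrays, against 10.32 and 10.38 in the vehicle arrays of the same experiment and schedule and 10.89 in the late vehicle array of J23. The difference was 0.37 (-0.10 to 0.84, limma adjusted p = 0.976), and 0.50 within J25. Adgre1 averaged 12.79 ± 0.08 with inhibitor and 12.59 ± 0.14 with vehicle (difference 0.20, -0.01 to 0.41). Cxcl13 had 12.79, 12.79, 12.84 and 12.99 with inhibitor, against 12.199, 12.68 and 12.74 with vehicle. Cxcl13 was the only member whose groups did not overlap, and the share of all genes without overlap was not computed. Its difference was 0.19 (-0.18 to 0.55, limma adjusted p = 0.976). Gata6 had 11.31 ± 0.05 with inhibitor and 11.30 ± 0.08 with vehicle, a difference of 0.01 (-0.36 to 0.38). The companions differed by a median of 0.20 with 0 of 18 called, while the median over all genes was 0.001. The 9 tested genes listed for small peritoneal macrophages and class II differed the other way, by a median of -0.31 with 0 of 9 called. Their part in these differences was not tested.

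In the arrays labelled spleen MF, 18 arrays of prolonged inhibitor were set against 8 of plain vehicle. The 18 include the 4 arrays of SB00526226, whose own vehicle at pH 3 is not among the 8. Pf4 differed by -0.09, and by 0.044 with both vehicles pooled. Gata6 had a lowest, median and highest value of 10.03, 11.25 and 11.42 with inhibitor, against 10.71, 11.19 and 11.32 with vehicle. The groups overlapped, and the difference was 0.10 (-0.16 to 0.36). Alox15 had the largest difference, 0.12 (-0.07 to 0.31), and Timd4 the smallest in size, -0.025 (-0.21 to 0.16). The experiments did not run one way. Alox15 differed by 0.63 in J2, by 0.22 in J3, by -0.015 in J6 and by -0.09 in J8. Icam2 differed by 0.61, 0.34, 0.055 and -0.32 in the same order. Cxcl13 differed by -0.16, -0.11, -0.09 and 0.30. In J2 the plain vehicle was 1 array, with an Alox15 of 13.01. The 2 arrays of pH 3 vehicle there averaged 13.50 and were not used in these differences.

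By compound, the 6 arrays of SB00526221 averaged 11.13 ± 0.20 for Gata6, 11.19 ± 0.17 for Timd4 and 12.79 ± 0.10 for Cxcl13. The 7 arrays of SB00526222 averaged 11.13 ± 0.49, 11.12 ± 0.23 and 12.92 ± 0.18, and the 8 vehicle arrays 11.06 ± 0.24, 11.09 ± 0.19 and 12.81 ± 0.25 (SD). Against vehicle, the members differed by between -0.10 (Pf4) and 0.16 (Timd4) with SB00526221 and by between -0.04 (Pf4) and 0.14 (Cxcl13) with SB00526222. In the same SB00526221 comparison the class II genes H2-Aa and Cd74 were lower, with differences of -1.11 (SE 0.21, limma adjusted p = 0.03) and -0.94 (SE 0.20, adjusted p = 0.0429). SB00526226, given with its pH 3 vehicle, had Cxcl13 values of 12.90, 12.92, 12.94 and 13.16, against 12.74, 12.80 and 12.81 in the vehicle, which did not overlap (difference 0.22, -0.05 to 0.49, limma adjusted p = 1). Here too the share of all genes without overlap was not computed. Pf4 had 11.80, 12.34, 12.44 and 13.12 with SB00526226, against 11.88, 11.92 and 12.16 with its vehicle (difference 0.34, -0.05 to 0.73). The single array of SB00526228 had 11.25 for Gata6, 13.77 for Alox15 and 12.13 for Pf4.

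**Figure D3:**
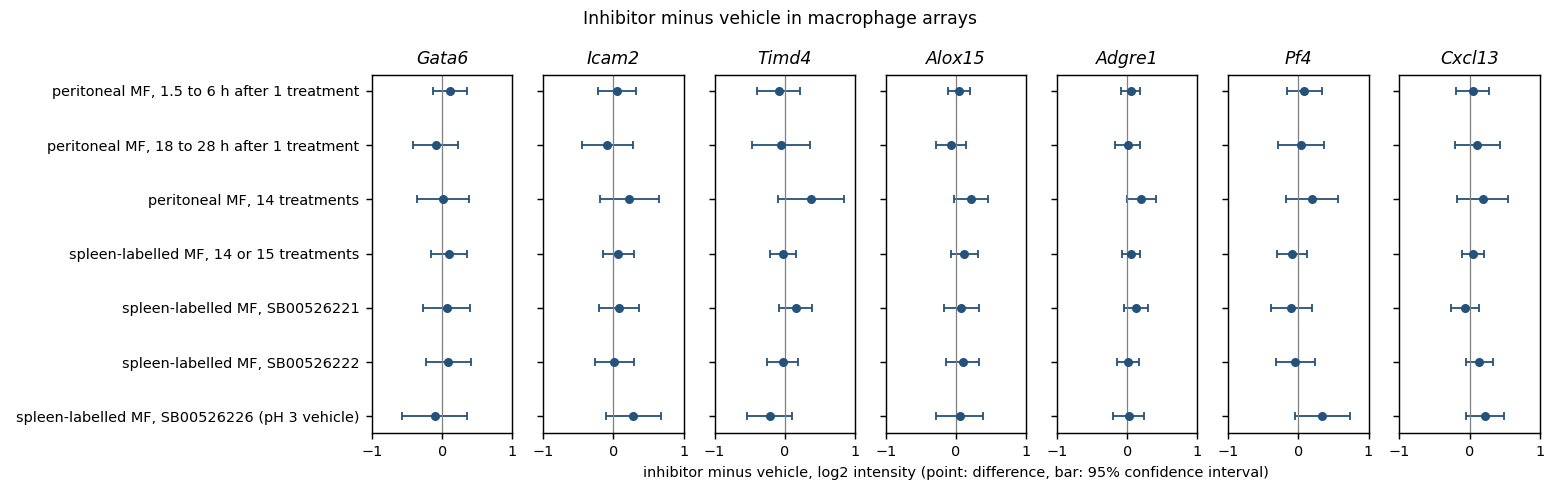
Difference of inhibitor minus vehicle on the log2 intensity scale for each member, in 3 peritoneal and 4 spleen-labelled comparisons. Points are limma estimates and bars 95% confidence intervals; every bar crosses 0, and the widest upper limit is 0.84 (Timd4 after 14 treatments).

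Between the 2 schedules of inhibitor, 1 member was called. Cxcl13 had 12.31, 12.42, 12.43 and 12.54 in the 4 arrays of the 4 h schedule (3 treatments), against a lowest, median and highest value of 12.62, 12.86 and 13.19 in the 17 arrays of prolonged treatment with the same 3 compounds. The groups did not overlap, and Cxcl13 was lower at 4 h (difference -0.59, SE 0.12, 1.51-fold, limma adjusted p = 0.0342, lower in 4 of 4 arrays). In this comparison 1 of 7 members was called, and 0.082% of all genes, 0.0273% as lower. Within J2, where all 4 h arrays lie, the 4 prolonged arrays had 12.78, 12.94, 13.06 and 13.16, so the difference there was -0.56, again without overlap. A fit on J2 alone did not call it (limma adjusted p = 0.786), and the call was lost when any 1 of 9 arrays was left out, with adjusted p between 0.0501 and 0.141. These were each of the 4 h arrays and 5 prolonged ones, 3 with SB00526222 (in J2, J3 and J8) and 2 with SB00526226 (in J2 and J8). No vehicle was taken at 4 h, so time after treatment and number of treatments cannot be told apart. The share of all genes without overlap was not computed, either over all these arrays or within J2.

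Genes of B cells, the cells that CXCL13 attracts, were followed in the same arrays. Of 6 listed, 5 were on the array, and their mean ran from 6.02 to 6.82 at 4 h, against 6.74 to 7.13 in the prolonged J2 arrays and 6.08 to 7.33 in all 17 prolonged arrays. Their part in the Cxcl13 result was not tested. The large peritoneal macrophage companions had 11.57 to 11.69 at 4 h and 11.44 to 11.71 in the prolonged J2 arrays. Timd4 differed by -0.32 at 4 h (-0.59 to -0.04, limma adjusted p = 0.423) and Pf4 by -0.31 (-0.65 to 0.03, adjusted p = 0.516). Gata6 had 11.10 to 11.38 at 4 h, within the prolonged range of 10.03 to 11.42.

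Some members varied together across arrays within experiments. After centring on experiment, relations were computed for 21 pairs in each set of macrophages, 42 in all, each by permutation within experiments (100000 permutations, two-sided). Compound, time and schedule were neither centred nor held fixed in the permutations. Differences between treatment groups of an experiment therefore enter r, rho and p along with those between animals. Their share was not tested. Alox15 followed Icam2, with r = 0.80 (rho = 0.80) over 33 arrays labelled spleen MF and r = 0.78 (rho = 0.65) over 33 peritoneal arrays. The permutation p was 1e-05 for both r, the smallest these permutations can give, and 0.00014 adjusted over the 42. Without the 2 arrays farthest in Icam2 r was 0.76 in both. Icam2 and Adgre1 had r = 0.54 (rho = 0.50, permutation p = 0.00202, adjusted 0.0106) in arrays labelled spleen MF and r = 0.76 (rho = 0.76, permutation p = 2e-05, adjusted 0.000168) in peritoneal MF.

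Gata6 followed Alox15 with r = 0.76 (rho = 0.59, permutation p = 2e-05, adjusted 0.000168) over arrays labelled spleen MF, and r was 0.61 without the 2 farthest arrays. In peritoneal MF r was 0.55 (rho = 0.28, permutation p = 0.00279, adjusted 0.0127) and 0.12 without the 2 farthest arrays, so there it rests on those 2 samples. Gata6 and Icam2 had r = 0.50 (rho = 0.39, permutation p = 0.00406, adjusted 0.0155) in arrays labelled spleen MF and r = 0.44 (rho = 0.31, permutation p = 0.00798, adjusted 0.0279) in peritoneal MF, and 0.31 and 0.21 without the 2 farthest arrays. Cxcl13 ran against Icam2 in peritoneal MF, with r = -0.57 (rho = -0.56, permutation p = 0.00056, adjusted 0.00392, and r = -0.56 without the 2 farthest arrays), negative in 3 of 3 experiments. In arrays labelled spleen MF it was -0.42 (permutation p = 0.0387, adjusted 0.0957). After adjustment 6 of 21 pairs were related by r in arrays labelled spleen MF, all positive, and 7 of 21 in peritoneal MF, 5 positive and 2 negative. By rho the counts were 5 and 4, all among the same pairs. Not related by rho were Gata6 with Icam2 in arrays labelled spleen MF (permutation p adjusted 0.132) and in peritoneal MF (0.26), and, in peritoneal MF, Gata6 with Alox15 (0.263) and Adgre1 with Cxcl13 (0.139). Those positive pairs were all among Gata6, Icam2, Alox15 and Adgre1, and Timd4 and Pf4 were in no related pair. The share of related pairs among other genes was not computed, so the counts are not read as particular to the members.

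**Figure D4:**
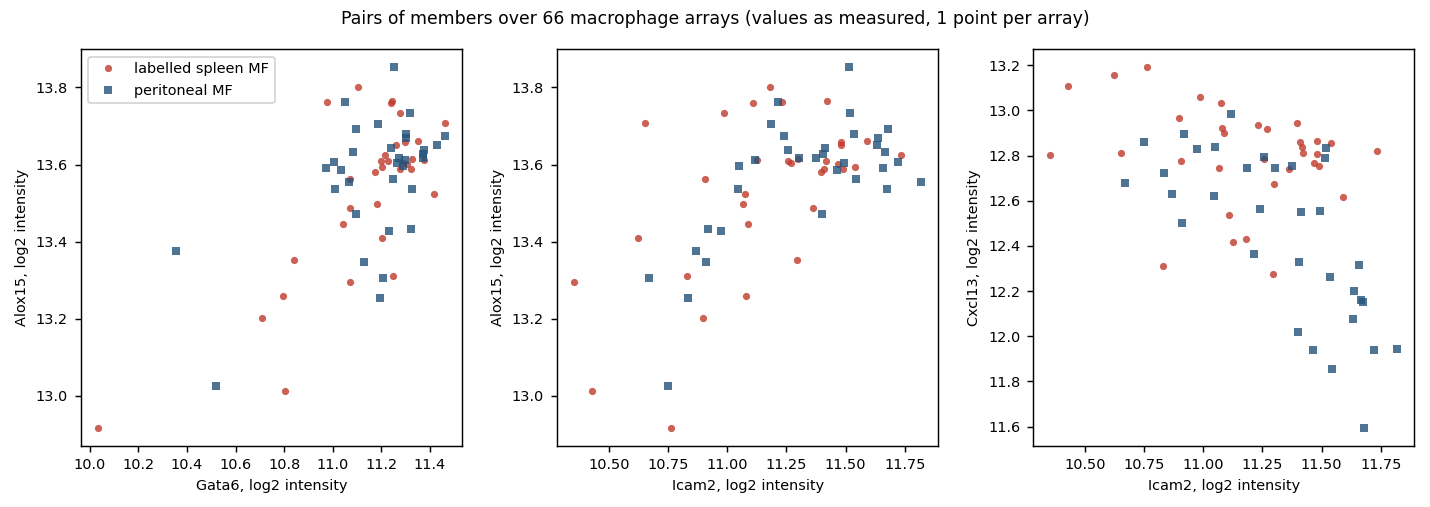
Log2 intensity of 3 pairs of members over the 66 macrophage arrays, as measured and without centring (circles labelled spleen MF, squares peritoneal MF). Alox15 rises with Gata6 and Icam2, the points at the far left of the Gata6 panel are the arrays at 10.03, 10.36 and 10.52, and Cxcl13 is lower where Icam2 is high in the peritoneal arrays.

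The 3 macrophage arrays with the lowest Gata6 are described singly. They were picked by that value and are part of the relations above, so they add no separate evidence for them. The J8 array of SB00526222 at 14 h had a Gata6 of 10.03, an Alox15 of 12.92 and an Adgre1 of 12.45, each the lowest of the 33 arrays labelled spleen MF, with a Cxcl13 of 13.19, the highest of them, and a Pf4 of 13.06. The J25 array of SB00513404 at 18 h had 10.52, 13.03 and 12.51 for the same 3 genes and a Cxcl13 of 12.86, the third highest of the peritoneal arrays. The J23 vehicle array at 6 h had 10.36, 13.38 and 12.53, with a Cxcl13 of 12.63. Gata6 was thus low in single animals on 2 inhibitors and on vehicle, and the other animals of the same groups had at least 11.01. The companions averaged 11.23, 11.32 and 11.19 in these arrays, against medians of 11.65 in arrays labelled spleen MF and 11.48 in peritoneal MF. Platelet genes averaged 6.99, 6.82 and 6.72 there, the first being the highest of the arrays labelled spleen MF, and B cell genes averaged 7.32, 6.77 and 7.16. Their part in the low values was not tested.

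Members also appeared in a few arrays of other cells. A set of 3 T4 arrays, chosen after their values were seen, stood apart from the other 36. A J2 array of the 4 h schedule with SB00526221 had 10.21 for Alox15, 9.15 for Cxcl13, 8.37 for Adgre1, 7.77 for Pf4, 7.39 for Timd4 and 6.97 for Gata6. The other 36 had 6.02 to 7.29 for Alox15, 4.92 to 6.61 for Cxcl13 and 6.03 to 6.66 for Gata6. In linear intensity its excess over the T4 median was 9.1% of the excess of an average macrophage array for Alox15, 8.08% for Cxcl13 and 4.66% for Timd4. A T4 array of J25 after 28 treatments with SB00513404 had 9.30 for Alox15 and 8.12 for Cxcl13, which is 4.5% and 3.61% by the same measure. Its other members ran from 1.37% (Pf4) to 2.55% (Timd4). A T4 array of J8 with SB00526226 had 8.38 for Alox15, 7.42 for Cxcl13 and 7.96 for Pf4 (2%, 1.94% and 3.13%). Its other members ran from -6.26% (Icam2) to 1.88% (Gata6). The companions averaged 8.07, 7.42 and 7.43 in these 3 arrays, against 6.25 to 6.73 in the other 36. Whether macrophage RNA entered these samples was not tested. All 3 are inhibitor arrays, so they are not in the tests of vehicle MF against vehicle T4, but they are in the levels over all T4 arrays, the gaps and the likeness over all arrays.

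**Figure D5:**
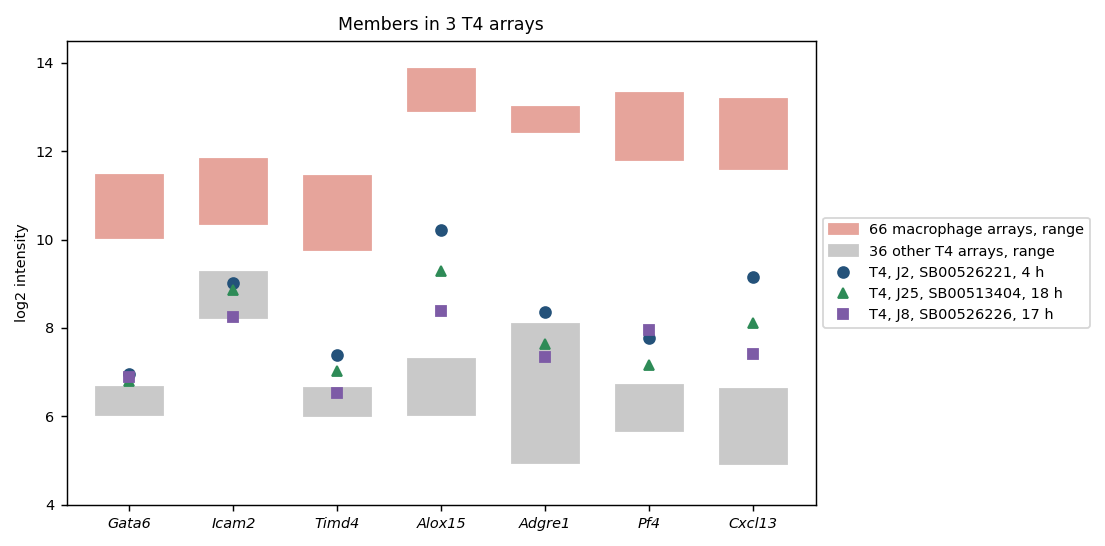
Log2 intensity of each member in 3 T4 arrays (symbols), with the range of the 36 other T4 arrays (grey) and of the 66 macrophage arrays (red). All 3 lie above the grey range for Gata6, Alox15, Pf4 and Cxcl13 and below the red range for every member.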

How the data were processed

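The values are linear intensities per probe set that the authors deposited after RMA with Affymetrix Power Tools, per the submitters' processing notes, which name no versions. RMA normalises all arrays together, so levels can be set across arrays and not between probe sets. A place above or under the array median is therefore only a rough mark of a bright or dim gene. The intensities were taken as log2 without a pseudocount. Members and marker lists were chosen with earlier results of these data known. Each gene was represented by its probe set of highest mean among probe sets with 1 symbol, and genes above the array median in at least 3 arrays of a fit were tested with limma 3.58.1 (R 4.3.3, lmFit and eBayes), with experiment as a fixed term, or as a random block for vehicle MF by label. P-values are two-sided and adjusted by Benjamini-Hochberg over all genes tested, at a threshold of 0.05, and intervals cover 95%. The steps were run on simulated arrays, with each gene drawn independently around its own mean and known changes added. Apart from added changes, the simulation held no differences between experiments, so it does not cover them. The text names the 7 members, up to 3 called genes of a marker list per comparison and the 3 genes most like each member. Groups follow the labels, and a number shared by titles within an experiment was read as 1 animal. The number of arrays limits the precision, and a p-value covers only the spread among these arrays. Alternatives were quantile normalisation, no filter, other vehicles, other experiment terms, animal as a random block and each array left out. Leaving out 3 T4 arrays was chosen after seeing the data.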

Additional observations from a re-analysis of the deposited data

Results flagged for a closer look

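Of 133 combinations of a group of 4 to 10 arrays with a member, 16 held 1 array far from the others by Dixon's criterion, and chance flags about 5% of groups. In peritoneal MF these were the SB00513404 array at 28 h in J23 for Cxcl13 (12.08, nearest other 12.83) and the 6 h vehicle array of J23 for Gata6 (10.36, nearest other 11.01).

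In arrays labelled spleen MF the J8 array of SB00526222 at 14 h stood apart for Gata6 (10.03, nearest other 11.26), Alox15 (12.92, nearest other 13.52) and Adgre1 (12.45, nearest other 12.66). A J8 array of SB00526221 was high for Adgre1 (13.0, nearest other 12.78), a J2 array of SB00526226 was high for Cxcl13 (13.16, nearest other 12.94) and a J8 vehicle array was low for Cxcl13 (12.28, nearest other 12.75).

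Among other cells, the J25 T4 array with 28 treatments of SB00513404 was high for Alox15 (9.3, nearest other 6.65), Adgre1 (7.64, nearest other 6.01), Pf4 (7.16, nearest other 5.93) and Cxcl13 (8.12, nearest other 5.51). A J8 T4 vehicle array was high for Cxcl13 (6.61, nearest other 5.57), as was a J8 NK array of SB00526221 (7.59, nearest other 5.6). A J6 DC vehicle array was low for Gata6 (5.76, nearest other 6.16) and high for Pf4 (6.66, nearest other 5.96). The causes were not tested.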

How the results depend on the processing

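Of 518 values of single members recomputed under other settings, 492 kept their direction and their side of the threshold, and of 1785 with 1 array left out, 1697 did. No value that was called changed sign. With quantile normalisation Timd4 also passed between spleen-labelled experiments (limma adjusted p = 0.012). The number of members called between J12 and J23 with J25 was 2. It was 4 with quantile normalisation, 1 without the filter and 1 to 3 with an array left out. With only the early vehicle arrays kept on both sides it was 1. At 4 h the number was 1, and it was 0 within J2 and 2 when the experiment term was dropped, and 0 to 1 with an array left out. Between spleen-labelled experiments it was 1 to 2 with an array left out. Between vehicle MF labelled spleen and peritoneal it was 0, and 1 without the experiment block.

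None of the differences that changed sign was called. With quantile normalisation these were Alox15 early (-0.001), Timd4 late (0.017), Gata6 after 14 treatments (-0.002), Icam2 and Adgre1 with SB00526222 (-0.023 and -0.008), and Alox15 and Adgre1 with SB00526226 (-0.030 and -0.017). Without the experiment term they were Cxcl13 early (-0.017), Icam2 and Timd4 with any prolonged inhibitor (-0.013 and 0.021), Icam2 and Timd4 with SB00526222 (-0.028 and 0.032) and Icam2 at 4 h (-0.139). With experiment as a random block they were Icam2 (-0.010) and Timd4 (0.003) with SB00526222. Alox15 was 0.059 between sorts with only the early vehicle arrays kept on both sides. Pf4 was 0.044 for any prolonged inhibitor with pooled vehicles, and Alox15 was -0.033 at 4 h in J2 alone. The cause was not tested.

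With 1 array left out, early differences ran from -0.002 to 0.116 for Cxcl13, -0.063 to 0.163 for Gata6, -0.067 to 0.134 for Icam2, -0.02 to 0.066 for Alox15 and -0.01 to 0.171 for Pf4. Between sorts they ran from -0.06 to 0.007 for Alox15 and -0.044 to 0.131 for Gata6. Late, they ran from -0.316 to 0.093 for Icam2, -0.131 to 0.114 for Timd4, -0.183 to 0.308 for Pf4, -0.061 to 0.078 for Adgre1 and -0.142 to 0.025 for Gata6. After 14 treatments they ran from -0.043 to 0.048 for Gata6 and -0.034 to 0.366 for Icam2. With any prolonged inhibitor they ran from -0.016 to 0.148 for Icam2, -0.056 to 0.015 for Timd4 and -0.032 to 0.093 for Cxcl13. With SB00526221 they ran from -0.001 to 0.129 for Alox15 and -0.026 to 0.133 for Gata6. With SB00526222 they ran from -0.085 to 0.116 for Icam2, -0.11 to 0.026 for Pf4, -0.081 to 0.02 for Timd4, -0.017 to 0.301 for Gata6 and -0.029 to 0.064 for Adgre1. With SB00526226 they ran from -0.048 to 0.158 for Alox15, -0.194 to 0.002 for Gata6 and -0.046 to 0.098 for Adgre1. At 4 h Adgre1 ran from -0.021 to 0.04. Between vehicle MF by label they ran from -0.026 to 0.031 for Adgre1, -0.196 to 0.048 for Icam2 and -0.177 to 0.025 for Gata6.

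No paired analysis was possible between macrophage groups because each macrophage array came from a different animal. Between vehicle MF and the other cells, 6 of 8 MF arrays shared an animal with another cell type. With animal as a random block, 7 of 7 members were again called against each cell type, and Gata6 differed from DC by 4.84. The main limits are that the sort, the tissue label and the experiment run together, that doses are not given, that late peritoneal vehicle is 3 arrays, and that 4 h has no vehicle.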
